A study of Mus musculus with 6 samples.

Results

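Matrix metalloproteinases (MMPs) and their tissue inhibitors (TIMPs) were followed in mouse cells stimulated with IL-1β, with or without an inhibitor of the actin-bundling protein Fascin1 (FSCN1). The rows of 10 genes were taken by symbol from a table of 16880 genes, namely the 7 proteases Mmp2, Mmp3, Mmp9, Mmp10, Mmp13, Mmp14 and Mmp19 and the 3 inhibitors Timp1, Timp2 and Timp3, and all 10 were found. The samples were 6 RNA-sequencing libraries labelled as ATDC5, a mouse chondrogenic cell line, with 3 libraries per group. Both groups received 10 ng/mL IL-1β, and the cells of 1 group also received 10 μmol/L NP-G2-044, and the methods give a treatment time of 24 h. The titles and the treatment protocol give NP-G2-044, whereas 1 label of the treated samples gives NP-G2-047. The methods for sequencing call the cells chondrocytes, and those for cell culture describe primary articular chondrocytes of mice. The labels and the methods thus differ on the cells used. The methods also name a DMSO group, of which no library is among the 6 samples. The data can therefore show how each transcript differed with the inhibitor under IL-1β, but not whether IL-1β had raised it. The methods call the libraries of a group biological replicates, but no label says that they came from separate cultures, and the p-values then measure only the spread between these libraries, which may be technical.

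MMPs are zinc-dependent endopeptidases that are made as inactive proenzymes and together can cleave nearly every protein of the extracellular matrix. TIMPs bind the active site of the mature enzymes and block it. In osteoarthritic cartilage, MMP13 is the main collagenase of type II collagen and MMP3 cleaves proteoglycans and activates other MMPs, and both genes are classical targets of IL-1 through the AP-1 and NF-κB transcription factors. TIMP2 has a double role, since besides inhibiting MMPs it can tether pro-MMP2 to MMP14 at the cell surface, where pro-MMP2 is activated.

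Library totals were 16615831 to 17735850 rounded reads, so that a single read corresponded to 0.0564 to 0.0602 CPM (counts scaled to the library total). Relative to the variance that read sampling alone gives, libraries of the same group differed by a factor of 1.54 to 2.39 and libraries of different groups by 133.1 to 135.8, and no library stood nearer to the other group. Fscn1, which encodes the protein that the drug binds, was at 616.2 ± 9.46 TPM (length-scaled transcript abundance, SD, n = 3) with IL-1β and 252.4 ± 2.46 TPM (SD, n = 3) with NP-G2-044. Of 14 chondrocyte markers, 8 were listed and only Sox9 and Col11a2 averaged at least 1 TPM. The list summed to 12.0 to 12.8 TPM with IL-1β and 15.5 to 15.8 TPM with NP-G2-044. The higher sum was that of Sox9, which averaged 6.44 TPM with IL-1β and 11.4 TPM with NP-G2-044. The other listed chondrocyte markers together were lower with NP-G2-044. Col2a1, the type II collagen gene, averaged 0.217 TPM with IL-1β and 0.04 TPM with NP-G2-044. It did not exceed 12 reads in any library and Matn1 was at 0, so the defining cartilage matrix transcripts were at or near 0. Of 10 fibroblast markers, 8 averaged at least 1 TPM. The summed level of the list was 1160 to 1207 TPM with IL-1β and 370.2 to 386.7 TPM with NP-G2-044, mostly from Col1a2. That sum therefore does not show how the other fibroblast markers differed. Of 8 macrophage markers, 6 were listed, and their sum was 23.8 to 24.7 TPM with IL-1β and 128.6 to 140.0 TPM with NP-G2-044. Cd68, a lysosomal protein gene, averaged 12.4 TPM with IL-1β and 129.9 TPM with NP-G2-044. The higher sum was thus that of Cd68, and the other listed macrophage markers together were lower with NP-G2-044. Csf1r averaged 0.217 TPM with IL-1β and 0.137 TPM with NP-G2-044. Ptprc, the common leukocyte gene, was at 0 in all 6 libraries and Itgam did not exceed 1 read. The osteoblast list, with 4 of 7 genes listed, summed to 88.2 to 102.5 TPM and 6.57 to 7.59 TPM, mostly from Spp1. Endothelial and epithelial markers, with 5 of 6 and 6 of 6 listed, summed to at most 0.73 and 1.40 TPM in any library. The part of these marker differences in the results below was not tested. In bulk RNA, fewer cells of a type and less RNA per cell cannot be told apart.

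With NP-G2-044, transcripts of all 3 inhibitors fell. Timp2 fell by 64.4%, Timp1 fell by 51.1% and Timp3 fell by 47.0%, while Mmp14, the most abundant of the 7 proteases, fell by 28.5%. Mmp2 and Mmp3 also fell, Mmp19 was not called, and Mmp9, Mmp10 and Mmp13 had too few reads to enter the test. Calls came from the quasi-likelihood test of edgeR, adjusted by Benjamini-Hochberg over the 11983 genes that passed a filter on low counts, at an adjusted p below 0.05. Of the 10 genes, 7 passed the filter, 6 were called lower and 0 were called higher, where 39.8% of all genes tested were called lower and 40.2% higher. Counted at an unadjusted p below 0.05, the number called higher was also 0, and DESeq2 gave 0 as well. A further cutoff of 1 on the size of the log2 fold change, which the study used, left 4 lower and 0 higher, against 10.1% and 6.48% of all genes tested. The 4 are Mmp2, Mmp3, Timp1 and Timp2. For the 6 genes called lower, all 3 libraries with NP-G2-044 lay below all 3 libraries with IL-1β in TPM, as they did for 41.4% of all genes tested. The median log2 fold change of the 7 genes was −1.03, and that of all genes tested was 0.0018. Mmp3 passed the filter only through its reads in the IL-1β libraries, so its inclusion in these numbers was tied to its direction.

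**Figure D1:**
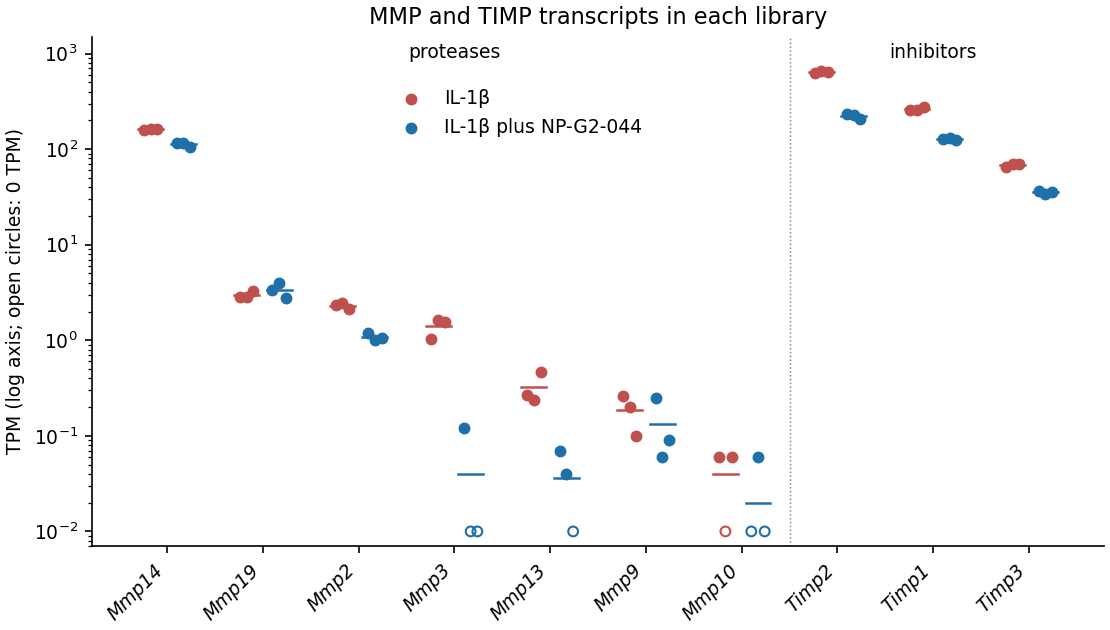
TPM of the 7 proteases and 3 inhibitors in each library, on a log axis, with IL-1β in red and IL-1β plus NP-G2-044 in blue, points for libraries, lines for means of 3 and open circles at the bottom for libraries at 0 TPM. Timp2, Timp1, Mmp14 and Timp3 stand far above the other genes, and Mmp3 and Mmp13 approach 0 with the inhibitor.

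The levels of the 10 transcripts spanned several orders of magnitude, as the plot of levels by library shows. With IL-1β the order by mean TPM was Timp2, Timp1, Mmp14, Timp3, Mmp19, Mmp2, Mmp3, Mmp13, Mmp9 and Mmp10. Neighbors in this order did not overlap between libraries except Mmp13 and Mmp9, at 0.24 to 0.47 TPM and 0.10 to 0.26 TPM. With NP-G2-044 the first 6 genes kept this order and the libraries of Timp1 and Mmp14, its neighbor, still did not overlap, with Timp1 at 124.81 to 129.67 TPM and Mmp14 at 105.07 to 116.65 TPM. Mmp9, Mmp3, Mmp13 and Mmp10 followed with overlapping values, none above 0.25 TPM in any library.

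The inhibitors were the most abundant part of the system. Timp2 (Entrez gene 21858, chromosome 11, 118301069 to 118355740, minus strand in GRCm38) encodes the inhibitor that also serves as the MMP14 adaptor. Its 3 IL-1β libraries were at 620.83, 659.92 and 636.59 TPM, and its 3 libraries with NP-G2-044 were at 230.73, 228.07 and 207.89 TPM. The groups were far apart, and by mean level the gene moved from rank 192 to rank 593 of the 16880 genes. The log2 fold change, NP-G2-044 over IL-1β, was −1.49 (standard error, SE, 0.0298, edgeR adjusted p = 1.41e-37), the largest fall among the 3 inhibitors. Timp2 and Mmp3 were the members still called when the null hypothesis was a change of at most 2-fold.

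Timp1 (Entrez gene 21857, chromosome X, 20870166 to 20874735, plus strand) encodes a secreted inhibitor that is induced by cytokines and growth factors in many cells. It was at 259.14, 254.36 and 273.93 TPM with IL-1β and at 126.42, 129.67 and 124.81 TPM with NP-G2-044. The highest treated library was far below the lowest IL-1β library. Its log2 fold change was −1.03 (SE 0.0406, edgeR adjusted p = 2.47e-29), just past the cutoff of 1, and it stayed between −1.06 and −1.01 with any library left out. When tested against a fold change of 2, its adjusted p from edgeR was 0.532.

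Timp3 (Entrez gene 21859, chromosome 10, 86300372 to 86349506, plus strand) encodes the inhibitor that binds to the matrix and also blocks aggrecanases of the ADAMTS family. It was at 65.48, 69.96 and 70.13 TPM with IL-1β and at 36.28, 34.25 and 35.99 TPM with NP-G2-044. The groups did not overlap, and the log2 fold change of −0.91 (SE 0.0332, edgeR adjusted p = 6.76e-31) was smaller in size than the cutoff of 1. Exons of Syn3 on the opposite strand overlap 1733 bases of its exons. Syn3 itself had 51 reads in total with IL-1β and 46 with NP-G2-044, against 9607 and 5355 of Timp3.

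Among the 7 proteases of the set, Mmp14 (Entrez gene 17387, chromosome 14, 54431612 to 54445364, plus strand) stood alone. It encodes the membrane-type enzyme MT1-MMP, a collagenase of the cell surface that also activates pro-MMP2. Its libraries were at 157.05, 161.66 and 163.19 TPM with IL-1β and at 116.65, 114.94 and 105.07 TPM with NP-G2-044. The groups did not overlap, and the log2 fold change was −0.48 (SE 0.0303, edgeR adjusted p = 3.80e-20). Mmp14 made up 95.7% ± 0.137 (SD, n = 3) of the summed TPM of the 7 proteases with IL-1β and 96.0% ± 0.332 (SD, n = 3) with NP-G2-044, and these shares overlapped. The sum over these 7 proteases therefore moved with Mmp14. This dominance holds within the set only, which leaves out Mmp11. Of the summed TPM of all listed Mmp genes, Mmp14 made up 47.95% ± 1.04 and Mmp11 43.95% ± 1.55 with IL-1β (SD, n = 3 each). With NP-G2-044 these shares were 60.92% ± 0.78 and 29.13% ± 1.04 (SD, n = 3 each).

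The gelatinases degrade denatured collagen and basement membrane collagen. Mmp2 (Entrez gene 17390, chromosome 8, 92827291 to 92853420, plus strand), the substrate of the complex of MMP14 and TIMP2, was at 2.36, 2.43 and 2.11 TPM with IL-1β and at 1.19, 1.00 and 1.06 TPM with NP-G2-044. It rested on 205 and 105 reads in total, its groups did not overlap, and its log2 fold change was −1.03 (SE 0.17, edgeR adjusted p = 3.02e-07). Without replicate 2 of the treated libraries it was −0.97, below the cutoff of 1 in size. Mmp9 (Entrez gene 17395, chromosome 2, 164940780 to 164955850, plus strand) had 8, 6 and 3 reads with IL-1β and 8, 2 and 3 with NP-G2-044. The values overlapped, and the ratio of pooled reads, IL-1β over NP-G2-044, corrected for the group totals, was 1.38 with an exact 95% binomial interval (Clopper-Pearson) from 0.63 to 3.08. A difference in Mmp9 was not detectable at this depth. Such intervals cover counting error only.

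Mmp19 (Entrez gene 58223, chromosome 10, 128790910 to 128800824, plus strand) encodes a secreted protease of basement membrane proteins. Of the proteases of the set that were tested, Mmp19 alone was not called. It was at 2.84, 2.84 and 3.30 TPM with IL-1β and at 3.37, 3.95 and 2.80 TPM with NP-G2-044. The groups overlapped and the log2 fold change of 0.22 (approximate 95% interval −0.014 to 0.46, adjusted p = 0.0863 from edgeR) was not called, and without replicate 3 of the treated libraries it was 0.33 (adjusted p = 0.0219 from edgeR). Exons of Tmem198b on the opposite strand overlap 789 bases, or 22.3%, of the exons of Mmp19. Tmem198b had 1627 reads with IL-1β and 1095 with NP-G2-044, more than the 289 and 355 of Mmp19, and the sources used here do not give the strand setting of the counting. The part of Tmem198b reads in Mmp19 was not tested.

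**Figure D2:**
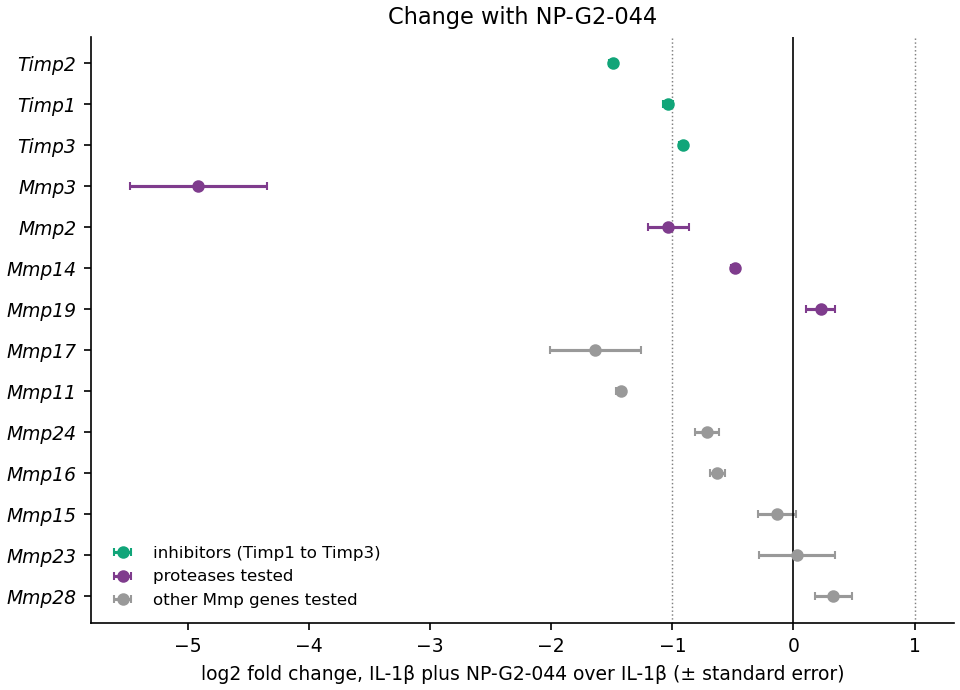
Log2 fold change with NP-G2-044 relative to IL-1β alone, from edgeR, for the 3 inhibitors, the 4 proteases tested and 7 other Mmp genes tested, with standard errors from 3 libraries per group and dotted lines at −1 and 1. The inhibitors lie between −1.49 and −0.91, Mmp14 lies at −0.48, and Mmp3 has the largest fall and a wide error.

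The stromelysins and the collagenase of the set were near the limit of detection. These 3 genes lie in a cluster of Mmp genes on chromosome 9, and their promoters are shown because they share a feature that the other promoters matched here did not. In the 250 bases before the transcript start annotated by RefSeq (GRCm38.p6), each of the 3 holds 1 match to the AP-1 motif TGANTCA, which is printed in capitals. The windows are chr9:7445572-7445821 for Mmp3, chr9:7502092-7502341 for Mmp10 and chr9:7272264-7272513 for Mmp13, all on the plus strand.
Mmp3: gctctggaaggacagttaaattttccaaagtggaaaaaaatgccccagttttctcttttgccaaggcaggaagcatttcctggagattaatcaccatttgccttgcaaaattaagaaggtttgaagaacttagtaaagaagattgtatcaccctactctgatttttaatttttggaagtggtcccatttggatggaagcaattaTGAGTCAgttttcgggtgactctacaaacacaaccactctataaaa
Mmp10: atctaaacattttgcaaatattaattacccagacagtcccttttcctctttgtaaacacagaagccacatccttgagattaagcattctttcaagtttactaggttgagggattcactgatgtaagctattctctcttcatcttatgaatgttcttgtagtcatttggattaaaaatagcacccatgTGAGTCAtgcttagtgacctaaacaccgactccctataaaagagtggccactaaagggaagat
Mmp13: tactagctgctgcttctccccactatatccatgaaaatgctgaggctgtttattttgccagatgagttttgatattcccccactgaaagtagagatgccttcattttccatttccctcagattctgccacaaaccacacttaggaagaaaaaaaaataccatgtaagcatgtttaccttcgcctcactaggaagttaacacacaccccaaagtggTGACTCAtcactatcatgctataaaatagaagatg

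The AP-1 match begins 46 bases before the start in Mmp3, 63 in Mmp10 and 35 in Mmp13. A match to TATAAA on the coding strand follows it in all 3 promoters, 7, 29 and 16 bases before the start. Promoters of 7 of the 10 genes were matched by symbol, and those of Mmp14, Timp1, Timp2 and Timp3 held neither motif but 1 or 2 matches each to the Sp1 motif GGGCGG, searched on both strands, which the first 3 lacked. Of the 250 bases, 203 of the Timp2 window and 40 of the Timp3 window are annotated as exon in GENCODE, so that the Timp2 window is mostly transcribed and not upstream sequence. Over 32536 promoter windows of the same length, TGANTCA was found in 6.73%, TATAAA in 7.55% and GGGCGG in 33.0%. The ETS motif AGGAAG, found in 29.6% of all windows on either strand, was in Mmp3, Mmp13, Mmp14, Timp1 and Timp3, and the NF-κB motif, found in 1.40% on either strand, was in none of the 7. TGANTCA and AGGAAG were searched on both strands, and no match in these 7 windows overlapped another. These matches describe the sequence and do not show that a factor bound there.

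**Figure D3:**
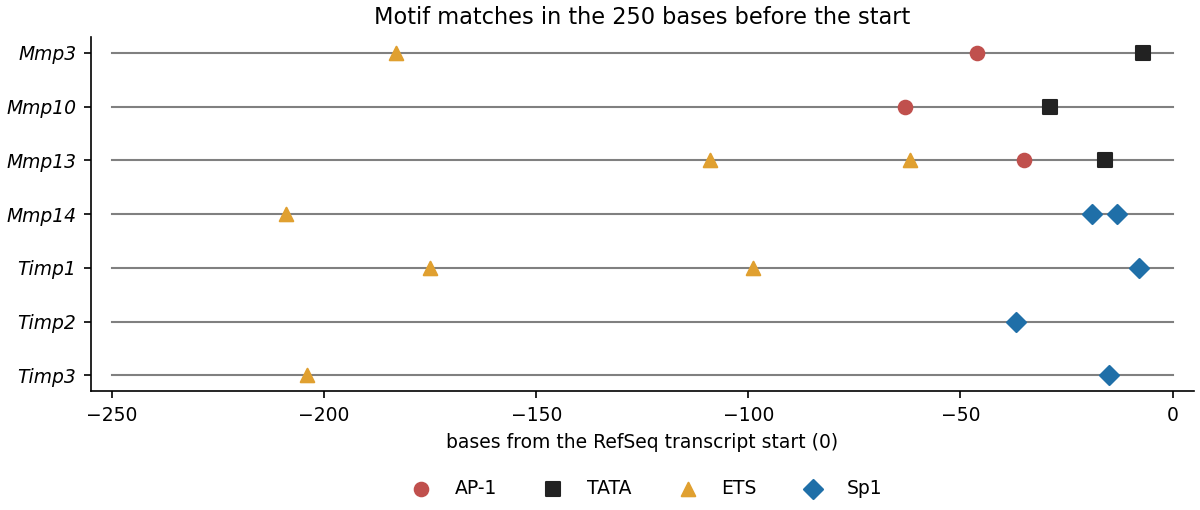
Positions of matches to the AP-1, TATA, ETS and Sp1 motifs in the 250 bases before the RefSeq transcript start of the 7 genes with a promoter entry, with the first base of each match on the x axis. AP-1 and TATA matches are in Mmp3, Mmp10 and Mmp13, and Sp1 matches are in Mmp14 and the 3 Timp genes.

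Mmp3 (Entrez gene 17392, chromosome 9, 7445822 to 7455975, plus strand), stromelysin 1, had 17, 26 and 25 reads with IL-1β, whereas the libraries with NP-G2-044 had 2, 0 and 0. Every treated library, at 0 to 0.12 TPM, was below every IL-1β library, at 1.04 to 1.63 TPM. A count of 0 allows up to 3 reads, or 0.169 CPM in replicate 2 and 0.17 CPM in replicate 3 of the treated libraries. The ratio of pooled reads, scaled as above, was 35.8 (exact 95% binomial interval 9.53 to 301), and the log2 fold change from edgeR was −4.91 (SE 0.565, adjusted p = 3.50e-11). Replicate 1 held both treated reads, and the value fitted without it, which then depends on the prior count, was −7.54. Of the 1752 stretches of 50 bases in annotated Mmp3 transcripts, 140 also occur in Mmp10, so a small part of the reads could belong to either gene.

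Mmp13 (Entrez gene 17386, chromosome 9, 7272514 to 7283331, plus strand), the main collagenase of cartilage, had 7, 6 and 12 reads with IL-1β and 2, 1 and 0 with NP-G2-044. The groups did not overlap, at 0.24 to 0.47 TPM and 0 to 0.07 TPM, and the gene was below the filter. Its ratio of pooled reads was 8.77 (exact 95% binomial interval 2.68 to 45.4). When no filter was applied, edgeR gave it −2.97 on the log2 scale (SE 0.736, edgeR adjusted p = 0.000111). Mmp10 (Entrez gene 17384, chromosome 9, 7502352 to 7510240, plus strand), stromelysin 2, had 1, 0 and 1 reads with IL-1β and 0, 1 and 0 with NP-G2-044, too few for a comparison. Its ratio of pooled reads was 2.10 with an interval from 0.11 to 124.

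The cluster on chromosome 9 holds 10 Mmp genes over 427 kb (7272514 to 7699585), of which 6 were listed. Together they had 27, 34 and 47 reads with IL-1β and 5, 2 and 0 reads with NP-G2-044, and no gene of the cluster exceeded 1.63 TPM in any library. Apart from Mmp3 and Mmp13, the listed genes of the cluster had 15 reads in total with IL-1β and 2 with NP-G2-044. Of these, Mmp12, the macrophage elastase gene, had 2, 2 and 8 reads with IL-1β and 1, 0 and 0 with NP-G2-044, a ratio of pooled reads of 12.6 (exact 95% binomial interval 1.87 to 540). Mmp7 had 1 read in all and Mmp27 had 0.

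Set against each other, the summed protease transcripts differed between groups by a smaller share than the summed inhibitor transcripts. The 7 proteases summed to 163.9, 169.0 and 170.8 TPM with IL-1β and to 121.7, 120.0 and 109.0 TPM with NP-G2-044, so that the mean fell by 30.4%. The 3 inhibitors summed to 945.5, 984.2 and 980.6 TPM with IL-1β and to 393.4, 392.0 and 368.7 TPM with NP-G2-044, so that the mean fell by 60.3%. The ratio of the sums was 0.1733, 0.1717 and 0.1741 with IL-1β and 0.3092, 0.3063 and 0.2957 with NP-G2-044. Inhibitor transcripts remained in excess in all 6 libraries, and the ratio was 1.75 times as high in the treated group (0.173 ± 0.00124 against 0.304 ± 0.0071, SD, n = 3 each). These sums are a description of chosen genes and carry no test. They count transcripts, not protein or enzyme activity.

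**Figure D4:**
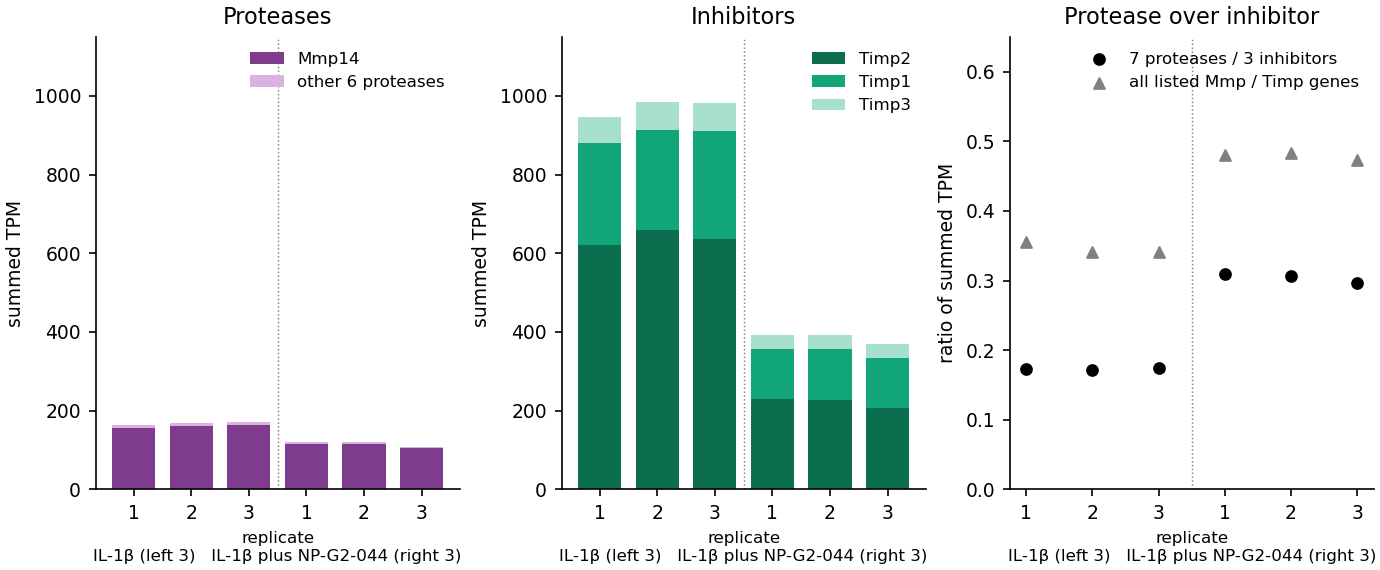
Summed TPM of the 7 proteases (left) and the 3 inhibitors (middle) in each library, stacked by gene, and the ratio of the sums (right), with IL-1β libraries first, black points for the 10 genes and grey triangles for all listed Mmp and Timp genes. Inhibitor sums exceed protease sums in every library, and the ratio is about 0.17 with IL-1β and about 0.30 with NP-G2-044 for the 10 genes.

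The 2 partners at the cell surface showed the same shift in their own levels. Mmp14 over Timp2 was 0.253, 0.245 and 0.256 with IL-1β and 0.506, 0.504 and 0.505 with NP-G2-044, 2.01 times as high. Mmp14 over Timp1 was 1.44 times as high and Mmp14 over Timp3 1.35 times as high, without overlap between groups in either. Mmp2 over Timp2 was 1.36 times as high, again without overlap. Within the inhibitors, Timp2 made up 65.9% ± 1.08 (SD, n = 3) of the transcripts with IL-1β and 57.7% ± 1.19 (SD, n = 3) with NP-G2-044, and the shares of Timp1 and Timp3 were correspondingly higher. Mmp3 and Mmp13 together were 1.03% ± 0.201 (SD, n = 3) of the protease transcripts with IL-1β and 0.0632% ± 0.0823 (SD, n = 3) with NP-G2-044. The members with the largest ratios between groups thus contributed little to the summed level.

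Of 17 further Mmp and Timp genes, 13 were listed and 7 passed the filter, of which 4 were called lower and 1 higher in edgeR's test, where 39.8% and 40.2% of all genes tested were called. Their median log2 fold change was −0.63. Mmp1a, Mmp1b, Mmp8 and Mmp20 were not analysed here. The most abundant was Mmp11 (Entrez gene 17385), stromelysin 3, a furin-activated enzyme with little activity on matrix proteins. It was at 153.15, 146.10 and 142.46 TPM with IL-1β and at 53.50, 54.37 and 52.86 TPM with NP-G2-044, just below Mmp14 in the first group and far below it in the second. Its log2 fold change was −1.43 (SE 0.0361, edgeR adjusted p = 5.13e-38). Exons of Chchd10 on the opposite strand overlap 155 of its bases, and Chchd10 had 116 and 119 reads against 9124 and 3571 of Mmp11.

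Among the other membrane-type enzymes, Mmp16 ranged from 9.56 to 11.98 TPM with IL-1β and from 6.80 to 7.12 TPM with NP-G2-044. Mmp24 ranged from 4.31 to 5.02 TPM and from 2.37 to 2.91 TPM. Both fell without overlap, with log2 fold changes of −0.63 and −0.71 (adjusted p = 4.08e-11 and 1.14e-08 from edgeR). Mmp17, whose product is anchored by a glycolipid, had 14, 18 and 19 reads with IL-1β and 3, 9 and 5 with NP-G2-044, a log2 fold change of −1.63 (adjusted p = 0.000112 from edgeR). Like Mmp3, it passed the filter only through its reads in the IL-1β libraries, so its place among the 4 called lower was tied to its direction. Mmp15 was at 1.45 ± 0.0153 and 1.29 ± 0.257 TPM and Mmp23 at 0.683 ± 0.211 and 0.643 ± 0.156 TPM (SD, n = 3 each), and neither was called. Mmp28, epilysin, was the gene called higher, at 1.54 to 1.68 TPM with IL-1β and 1.76 to 2.20 TPM with NP-G2-044, with a log2 fold change of 0.33 (adjusted p = 0.0425 from edgeR). That call was lost under DESeq2 (adjusted p = 0.16), limma-voom (adjusted p = 0.0598) and several other settings, and the adjusted p reached 0.191 without replicate 2 of the treated libraries. Exons of other genes on the opposite strand overlap 466 exon bases, or 12.0%, of Mmp28 and 637 of Mmp24. The gene that overlaps Mmp28, 1700020L24Rik, had 23 reads with IL-1β and 39 with NP-G2-044, against 165 and 218 of Mmp28. The part of 1700020L24Rik reads in Mmp28 was not tested. Mmp21, Mmp25 and Timp4 had 1, 2 and 4 reads over the 6 libraries. When all listed Mmp genes were set against all listed Timp genes, the ratio of summed TPM was 0.345 ± 0.00795 with IL-1β and 0.479 ± 0.00485 with NP-G2-044 (SD, n = 3 each). Adding Mmp11 therefore narrowed the difference from 1.75 times to 1.36 times, and all listed genes gave 1.39 times.

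Genes that act on MMPs from outside the family were grouped by role. Of 9 activators and inducers, 7 were tested, 4 were called lower and 1 higher, against 39.8% and 40.2% of all genes tested, with a median log2 fold change of −0.25. Furin, the convertase that activates MMP14 and MMP11 inside the cell, had a log2 fold change of −0.28, Bsg (the MMP inducer basigin) one of −0.25 and Plau (urokinase) one of −0.57, while Cd44, which docks MMP14 at the cell surface, had one of 0.24. Plat, tissue plasminogen activator, was past both cutoffs, from 9.51 ± 1.19 to 2.68 ± 0.44 TPM (SD, n = 3 each) and −1.79 on the log2 scale (adjusted p = 9.73e-20 from edgeR). Furin, Bsg, Plau and Cd44 were picked with their values in view.

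Of 8 genes of other inhibitors and of clearance, 6 were tested and 5 were called lower, against 39.8% of all genes tested, with a median of −1.21. Reck, a membrane-anchored inhibitor of MMP14, MMP2 and MMP9, had a log2 fold change of −0.37 (adjusted p = 0.00424 from edgeR), and Lrp1, the receptor that removes MMPs and complexes of MMPs with TIMPs, had one of −0.91. Past both cutoffs were Thbs1 at −4.64, Thbs2 at −4.06 and Mrc2 at −1.51 on the log2 scale. Thbs1 and Thbs2 encode thrombospondins, of which thrombospondin 2 promotes the uptake of MMP2, and Mrc2 encodes the receptor through which cells take up collagen fragments. The levels of Thbs1 were 177.37, 199.85 and 195.44 TPM with IL-1β and 7.67, 7.53 and 7.20 TPM with NP-G2-044. Reck and Lrp1 were picked with their values in view, as were Fos, Nfkb1, Nfkb2, Rel, Rela and Nfkbia in the next list.

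Transcripts of AP-1, NF-κB and related genes, a list that includes factors through which IL-1 induces Mmp3 and Mmp13, did not move in a common direction. Transcript levels do not measure the activity of these factors. Their part in the levels of Mmp3 and Mmp13 was not tested. Of 18 AP-1, NF-κB, ETS and related genes, 15 were tested, 8 were called higher and 5 lower, against 40.2% and 39.8% of all genes tested, with a median of 0.16. Jun rose from 7.30 ± 0.246 to 21.9 ± 0.699 TPM and Jund from 26.5 ± 1.75 to 69.2 ± 4.18 TPM, while Fosl2 fell from 94.8 ± 1.70 to 36.0 ± 1.03 TPM (SD, n = 3 each), with log2 fold changes of 1.62, 1.42 and −1.36 (adjusted p = 4.86e-29, 3.29e-28 and 1.18e-40 from edgeR). Of the NF-κB subunit genes, Relb, Nfkb2 and Rela were called higher, Nfkb1 was called lower and Rel was not called. The log2 fold change was 1.11 for Relb, 0.51 for Nfkb2 and 0.43 for Rela. Nfkb1, which encodes the p105 precursor of another subunit, had one of −1.08. Nfkbia, which encodes the inhibitor IκBα and not a subunit, had one of −1.01. Relb, Nfkb1 and Nfkbia were past both cutoffs. Fos was at 0.46 to 0.61 TPM with IL-1β and 0.29 to 0.53 TPM with NP-G2-044 and was below the filter. Over this list and those of activators and of other inhibitors and clearance together, 10 genes were called higher and 14 lower, where 40.2% and 39.8% of all genes tested were called.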

How the data were processed

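Libraries were made from total RNA with an Illumina TruSeq RNA kit and sequenced and quantified by BGI. The submitters' processing notes name cutadapt, HISAT2 2.0, StringTie and the build mm10. The authors deposited, for each gene and library, an expected count that is not normalized (10.17% to 11.06% of the values are not whole), TPM and FPKM, together with group means, which were not used. Counts were rounded, filtered with filterByExpr (minimum count 10), normalized with TMM (factors 0.998 to 1.002) and compared over 11983 genes in edgeR 4.0.16 (quasi-likelihood test, R 4.3.3), 3 libraries against 3, without covariates. Standard errors are the log2 fold change over the square root of F. Genes below the filter are given as pooled reads. Steps were tested on simulated counts. Members and gene lists were chosen with earlier results of these data known. Named are the 10 members, the other listed Mmp and Timp genes, Fscn1 and, per further list, up to 4 genes past both cutoffs with at least 1 TPM. Coordinates are from GENCODE vM21 (GRCm38, the assembly of mm10) and promoters from RefSeq (GRCm38.p6). Shared stretches were searched at 50 bases. Alternatives were other normalizations, DESeq2 1.42.0, limma 3.58.1 (voom, and log2(TPM + 1) or log2(TPM + 0.1)), other filters, replicate number as block, omission of single libraries over the same genes, and testing against 2-fold. The values of 1 gene of the further lists are not reported here.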

Additional observations from a re-analysis of the deposited data

How the results depend on the processing

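The 6 genes called lower were 6 under DESeq2 size factors, library size alone, DESeq2, limma-voom, limma on both TPM scales and the replicate block, 7 without the filter, which adds Mmp13, and 4 when 10 CPM was required in 3 libraries, which leaves only Mmp14 and the 3 Timp genes to test. The test against a fold change of 2 called 2, namely Mmp3 and Timp2. Past both cutoffs, 4 became 2 under the CPM filter, 2 against a fold change of 2, 5 without the filter and 3 on log2(TPM + 1). On log2(TPM + 1), which understates changes of low genes, Mmp2 was −0.66 and Mmp3 −1.20. With each library left out, 6 were called lower, 3 to 4 were past both cutoffs and 0 to 1 were called higher, the 1 being Mmp19. The wider lists gave 3 higher and 6 lower against a fold change of 2, and 10 higher and 14 to 15 lower with each library left out. No pairing by replicate number was detected (correlations of deviations −0.093, −0.024 and 0.026), though with 3 libraries per group a weak pairing could go unseen. The replicate block changed none of these counts. Mmp15 changed sign without replicate 3 of the treated libraries (0.012, with left-out libraries giving −0.26 to 0.012), and Mmp23 did so on log2(TPM + 1) (−0.031) and log2(TPM + 0.1) (−0.058), and without replicate 2 (−0.16) or 3 (−0.029) of the IL-1β libraries or replicate 2 (−0.17) of the treated ones (left-out range −0.17 to 0.31), all without a call. The protease to inhibitor ratio was 0.225 and 0.419 on CPM, which is not corrected for length, and 0.345 and 0.479 with all listed genes, and left-out libraries gave 0.173 to 0.174 and 0.301 to 0.308. FPKM gave the same ratios as TPM. Depth limits Mmp9, Mmp10 and Mmp13, which had 30, 3 and 28 reads over all libraries.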
